A study of Mus musculus with 16 samples.

Results

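Epididymal fat of obese mice given resveratrol, a plant polyphenol, was compared with fat of lean mice kept on a normal diet. The libraries were chosen by their label and by 1 measured value: of the 4 resveratrol libraries, the 1 with Crisp1, a secreted protein of the epididymis, above 1000 CPM (read counts scaled to a common library size) was left out. That left 3 resveratrol and 4 normal diet libraries, 7 of the 16 in the series. All animals were male C57BL/6J mice (the strain field reads C57BL/6), 6 weeks old and about 22 g when bought. The lean group had a normal diet and no drug. The resveratrol group had a high-fat diet (HFD; 60% fat, 20% carbohydrate and 20% protein) for 8 weeks and then resveratrol for 6 weeks. The sources used here give no dose, route or vehicle and do not say whether the HFD went on during treatment, and each library has a code of its own in its title. Fat of mice given the HFD and no drug, 4 libraries of which 1 column matched its group but no title, is given beside the results. Those comparisons share the normal diet or the resveratrol libraries with the main one. The main model behind the p-values also held the HFD libraries and 4 libraries of mice given metformin. Those mice had the HFD for 8 weeks and then metformin for 6 weeks.

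White fat stores triglyceride in large fat cells and secretes hormones such as leptin and adiponectin. When it expands on a rich diet its fat cells enlarge, macrophages gather around dying fat cells and take up lipid, and collagens are laid down. Resveratrol is best known for its reported effects on sirtuin deacetylases, on AMPK, the kinase that senses low cellular energy, and on the aryl hydrocarbon receptor (AhR).

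Gene expression was measured as read counts per transcript, summed to genes. Totals ran from 13350585 to 18322401 counts in the normal diet libraries and from 13734379 to 17150115 in the 3 resveratrol libraries, and mitochondrial genes took 1.42% to 2.08% and 1.34% to 1.65% of them. Titles and design text name epididymal fat, whereas the extraction text names retinas and the treatment text skeletal muscle, so markers of each were read. Summed CPM of 16 fat cell markers was 36200 to 53800 on normal diet and 38500, 49600 and 55300 with resveratrol. For 16 skeletal muscle markers it was 42.9 to 166 and 47.9 to 112, and for 15 retina markers 9.14 to 10.6 and 8.8 to 11.2, with 4 of the 15 at 0 in all 7 libraries. The left-out library held 1480 CPM of fat cell markers and 12100 CPM of Crisp1, while Crisp1 was at most 0.178 CPM in the 7 libraries used. Transcripts of motile ciliated epithelium, 25 genes, were high in 1 library of each group, at 1200 CPM in normal diet 2 and 707 in resveratrol 2, against 25.4 to 44.2 in the other 5. Those of the epididymis and seminal vesicle, 20 genes of which 2 were at 0 in all 7 libraries, summed to 55.1, 404, 8.19 and 1400 CPM on normal diet and to 4.9, 24.2 and 7.06 with resveratrol. Crisp1 belongs to this list and decided which resveratrol library was left out, at 20200 CPM for the list. That choice took the highest sum out of the resveratrol group only. The ranges of the fat cell markers overlapped between the groups.

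**Figure D1:**
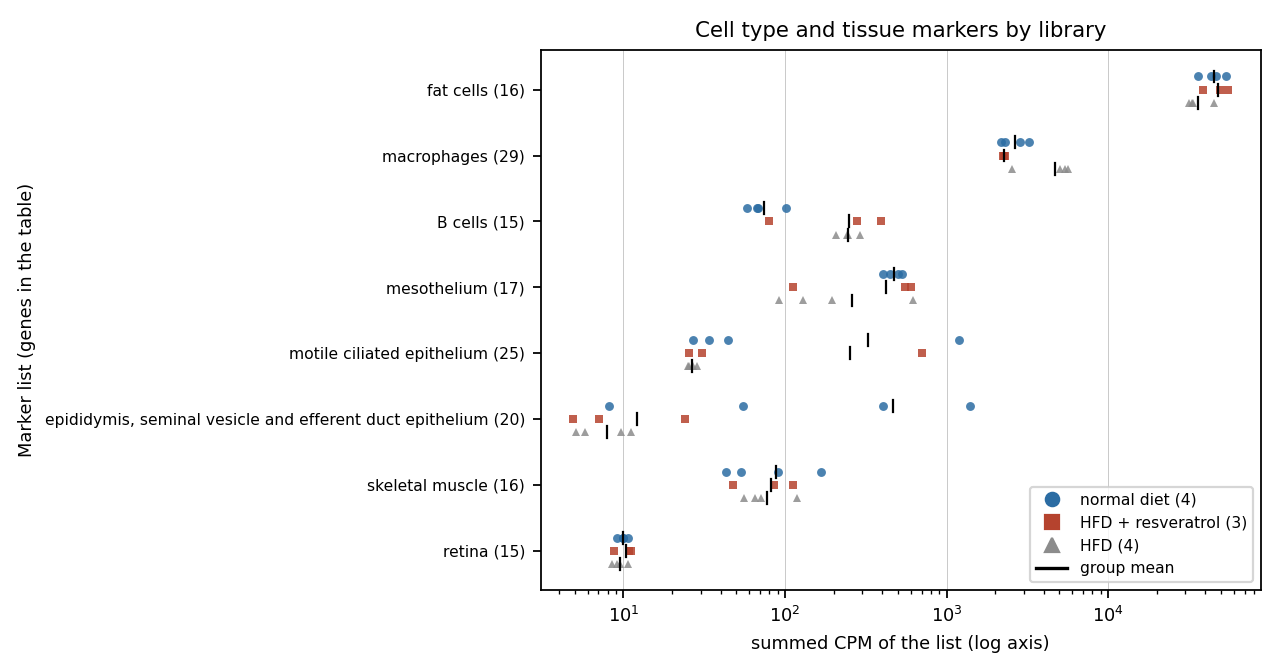
Summed CPM of 8 marker lists (log axis) in the normal diet libraries (circles), the 3 resveratrol libraries (squares) and HFD (triangles), with a bar at each group mean. Fat cell markers lie at 31900 CPM or above in every library shown, the macrophage sum of the 3 resveratrol libraries lies within the normal diet range, and ciliated epithelium is high in 1 library of each of those groups.

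Few genes passed the threshold between treated and lean fat. With 3 against 4 libraries this does not show that the other genes were equal. Of 17535 genes tested, of 27150 in the table, 26 (0.148%) passed an adjusted p of 0.05 in edgeR's quasi-likelihood test, 18 higher with resveratrol (0.103%) and 8 lower (0.0456%). In the same fit untreated HFD fat differed from normal diet in 4050 genes (23.1%), and resveratrol fat differed from HFD fat in 732 (4.17%). The last count, and with it each adjusted p against HFD given here, depends on single libraries: it was 1, 2 and 1 without resveratrol 1, 2 or 3, 5 without normal diet 2 and resveratrol 2, and 1855 without the columns matched to a group only. An unadjusted p under 0.05 was reached by 1724 genes (9.83%; 5.62% on the higher side with resveratrol and 4.21% on the lower), and the 3 and 4 libraries did not overlap for 2201 (12.6%). The median log2 difference over all genes tested was -0.02. The number of calls for resveratrol against normal diet moved with the libraries and the tool used. With the 7 libraries alone 0 genes passed (2115 at unadjusted p under 0.05, smallest adjusted p 0.0567), with the left-out library kept 0 passed (1844 at unadjusted p under 0.05, smallest adjusted p 0.296), and by DESeq2's Wald test 420 did. Leaving out normal diet 1, 2, 3 or 4 gave 6, 10, 11 and 10 genes, and leaving out resveratrol 1, 2 or 3 gave 6, 11 and 15. Without both libraries rich in ciliated epithelium transcripts 8 passed, and without the columns matched to a group only 8 passed. More genes passed, 95 and 41, without the metformin libraries or without the 5 libraries rich in ciliated epithelium transcripts. Over 18 such alternatives 5 of the called genes were called in at least 14, and the other 21 in 5 to 10. Of the 18 genes that rose 14 differed more than 2-fold on the fitted scale, and of the 8 that fell 2 did.

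Among the called genes the largest fitted rise was that of a transporter. Slc5a7, the high-affinity choline transporter best known from cholinergic nerve endings, was at 2.08, 1.77, 2.52 and 1.59 CPM in the 4 normal diet libraries and at 19.8, 58.8 and 11.6 in the 3 resveratrol libraries. Every treated library lay above every lean one, but the treated ones were also far apart from each other. The log2 difference was 3.91 (SE 0.63, adjusted p = 0.0349), and HFD fat had 163 ± 73.3 CPM (SD, n = 4), 6.35 log2 above normal diet. Treated fat stood between the lean and the untreated obese level, with a difference from HFD of -2.44 log2 (adjusted p = 0.0418). The call for Slc5a7 held in 7 of 18 alternative analyses.

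Apln and Sfrp5 are both secreted by fat. Apln codes for apelin, a peptide hormone of fat cells, and lies on chromosome X at 48025146 to 48034853 (GRCm38). It was at 9.55, 6.84, 9.33 and 12.7 CPM on normal diet and at 55.5, 24.2 and 40.2 with resveratrol, a log2 difference of 2.06 (SE 0.30, adjusted p = 0.0235). Treated libraries spanned the HFD level of 33.6 ± 9.21 CPM (SD, n = 4). Sfrp5, a secreted antagonist of Wnt ligands on chromosome 19 at 42197971 to 42202252, was at 68.7, 65.3, 58.8 and 137 CPM on normal diet and at 265, 369 and 369 with resveratrol (log2 difference 2.02, SE 0.32, adjusted p = 0.0329). Normal diet 4 stood apart from the other lean libraries and still lay under every treated one, and HFD fat had 619 ± 78.2 CPM. Sfrp4, a second secreted Wnt antagonist, went from 7.55, 5.32, 10 and 8.46 CPM to 23.4, 15.8 and 28.1 (log2 difference 1.52, SE 0.23, adjusted p = 0.0254), and HFD fat had 17.5 ± 2.88.

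Of called genes whose start the RefSeq table (GRCm38.p6) holds, Slc5a7, Sfrp5 and Apln are the transporter and secreted factors with the largest fitted differences. The sequences before their starts are therefore shown. Each is 250 bases long and ends at the base before the annotated start, written 5′ to 3′ on the minus strand, with the motifs found in capitals. They cover chr17:54299035-54299284 for Slc5a7, chr19:42202253-42202502 for Sfrp5 and chrX:48034854-48035103 for Apln.
Slc5a7: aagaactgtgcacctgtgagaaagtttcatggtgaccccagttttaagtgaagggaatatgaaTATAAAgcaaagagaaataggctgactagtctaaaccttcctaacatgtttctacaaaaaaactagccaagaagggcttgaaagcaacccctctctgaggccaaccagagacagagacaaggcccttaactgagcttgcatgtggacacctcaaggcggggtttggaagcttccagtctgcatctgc
Sfrp5: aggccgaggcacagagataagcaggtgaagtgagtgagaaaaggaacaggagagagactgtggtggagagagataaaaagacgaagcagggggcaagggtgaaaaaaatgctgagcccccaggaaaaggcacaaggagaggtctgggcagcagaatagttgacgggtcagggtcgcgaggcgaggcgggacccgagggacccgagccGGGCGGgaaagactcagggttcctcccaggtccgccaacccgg
Apln: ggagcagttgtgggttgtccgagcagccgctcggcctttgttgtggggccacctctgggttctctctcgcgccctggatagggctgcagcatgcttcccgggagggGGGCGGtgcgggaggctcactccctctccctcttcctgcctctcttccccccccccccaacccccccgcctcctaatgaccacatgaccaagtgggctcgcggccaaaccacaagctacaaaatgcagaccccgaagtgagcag
The search, on both strands, was first for TATAAA, the core element that positions polymerase at many promoters, and for CCAAT, an element bound by general promoter factors. It also covered GGGCGG, the box bound by Sp factors, and CACGTG, the element bound by clock factors. Half-sites of hormone receptors were read as AGGTCA for nuclear receptors in general and as AGAACA for the glucocorticoid receptor. None of these motifs contains another. Slc5a7 holds 1 TATAAA, whereas Sfrp5 and Apln hold 1 GGGCGG each. Over all 32851 windows of that length in the table, TATAAA was in 12.4% and GGGCGG in 32.7%. Of the 26 called genes 15 had a window, and GGGCGG was in a window of 9 of these 15, TATAAA of 3, CCAAT of 3 (33.8% of all windows), AGAACA of 4 (16.1%), CACGTG of 1 (6.02%) and AGGTCA of 0 (14% of all windows). A called gene counted if any of its windows held the motif, whereas the shares of all windows are per window, so the units differ. A match describes the letters and is no evidence of binding.

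Unc79, a subunit of the sodium leak channel complex of neurons, was at 2.46, 2.13, 2.79 and 3.23 CPM on normal diet and at 11.4, 17.6 and 10.4 with resveratrol (log2 difference 2.31, SE 0.28, adjusted p = 0.00728). HFD fat had 20.2 ± 4.37 CPM of it, and the call held in 15 of 18 alternatives. Paqr9, of the progestin and adipoQ receptor family, was at 35.4, 19.1, 21.1 and 22 CPM against 110.4, 78.2 and 66.4 (log2 difference 1.80, SE 0.27, adjusted p = 0.0236). It too lay between lean fat and HFD fat, which had 290.5 ± 81.3 CPM, and the difference of treated from HFD fat was -1.77 log2 (adjusted p = 0.0348). Prkag3 codes for a regulatory subunit of AMPK that is mainly known from skeletal muscle. Its levels were 4.39, 3.9, 4.93 and 7.17 CPM on normal diet, 15.4, 17.8 and 14 with resveratrol (log2 difference 1.62, SE 0.25, adjusted p = 0.0254) and 15.9 ± 3.69 in HFD fat. Skeletal muscle markers, given above, overlapped between the groups, and a link between them and Prkag3 was not tested.

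Smaller rises followed. Tspan6, a tetraspanin membrane protein, was at 10.7, 14.3, 9.76 and 12.8 CPM against 28.2, 25.1 and 28.8 (log2 difference 1.20, SE 0.16, adjusted p = 0.0129), with 29.8 ± 2.06 in HFD fat, and was called in 14 of 18 alternatives. Bicdl1, an adaptor that links vesicles to dynein, differed by 1.22 log2 (SE 0.21), and Hipk2, a nuclear kinase, by 0.91 (SE 0.16), both with an adjusted p of 0.0432. Hipk2 was at 227 to 256 CPM on normal diet and at 428 to 522 with resveratrol. Tcaf2, a partner of TRP channels, differed by 0.77 log2 (SE 0.13, adjusted p = 0.0432) and Maged1, an adaptor of the MAGE family, by 0.54 (SE 0.09, adjusted p = 0.034). Gatsl2, which the naming rule left out as the 13th by size and which is named after its values were seen, was at 34.5 to 36.9 CPM against 47.1 to 54.1, a difference of 0.51 log2 (SE 0.07, adjusted p = 0.0173). The remaining 5 of the 18 carry provisional names. Among them, also named after their values were seen, Gm4912 was at 1.32 to 1.94 against 5.87 to 9.43 CPM (log2 difference 2.30, adjusted p = 0.00672, called in 16 of 18 alternatives). A neighbouring pair on chromosome 6, Gm15519 at 112563642 to 112565207 and Gm5578 at 112605544 to 112606779, differed by 1.65 and 1.32 log2, each with an adjusted p of 0.0432. Reads of provisional genes with near-identical copies elsewhere may be split by the counting, so these values are uncertain.

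**Figure D2:**
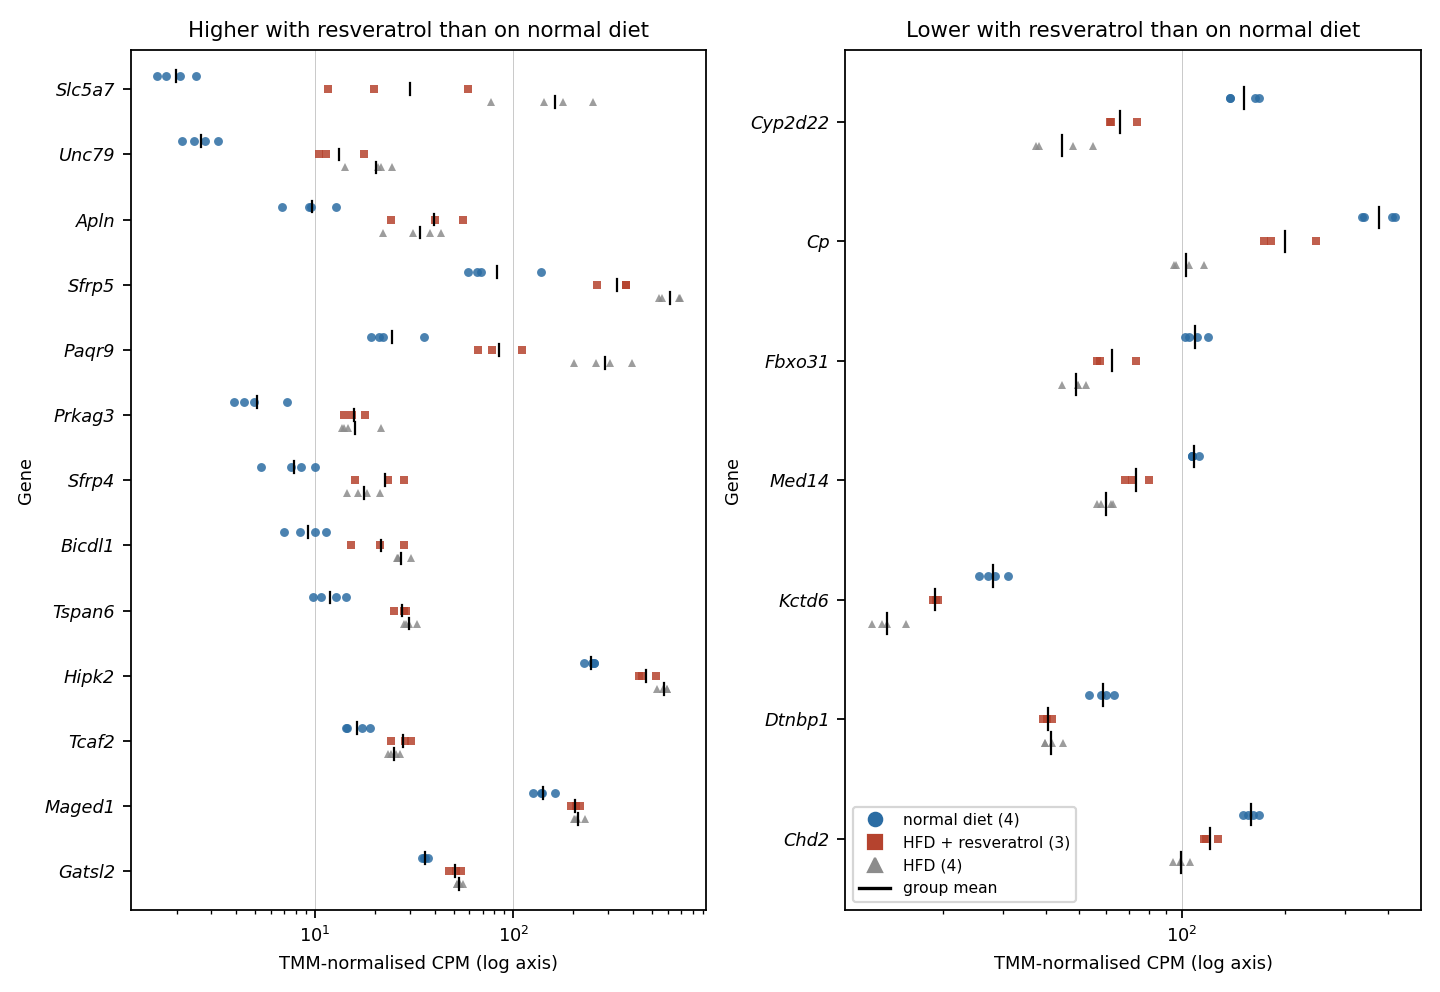
TMM-normalised CPM (log axis) of the 13 named genes that rose and of 7 genes that fell, in normal diet (circles), resveratrol (squares) and HFD libraries (triangles), with a bar at each group mean. No square overlaps the circles of its gene, which the threshold favours, and for 10 genes, Slc5a7, Sfrp5, Paqr9, Hipk2, Cyp2d22, Cp, Fbxo31, Med14, Kctd6 and Chd2, all squares lie between the circles and the triangles.

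The genes that fell included those for an enzyme of foreign compounds, an iron oxidase and proteins of the nucleus and of ubiquitin ligases. Cyp2d22, a cytochrome P450 on chromosome 15 at 82370528 to 82380260, was at 164, 138, 138 and 168 CPM on normal diet and at 61.8, 74 and 62.1 with resveratrol. The treated libraries lay close together, under the lowest lean one by a wide gap. Its log2 difference was -1.20 (SE 0.14, adjusted p = 0.00672), HFD fat had 44.8 ± 8.43 CPM, and the call held in 16 of 18 alternatives. Cyp2d22 belongs to a family of similar genes, and whether the counting split reads between them was not tested.

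Cp, ceruloplasmin, the copper protein that oxidises iron, was at 412, 419, 342 and 337 CPM on normal diet and at 174, 246 and 182 with resveratrol (log2 difference -0.91, SE 0.15, adjusted p = 0.0432). HFD fat had 103 ± 9.62 CPM, and treated fat exceeded it by 0.96 log2 (adjusted p = 0.0348). Fbxo31, a substrate receptor of a ubiquitin ligase, was at 102 to 119 CPM against 56.5 to 73.4 (log2 difference -0.80, SE 0.11, adjusted p = 0.0199). Med14, a core subunit of the Mediator complex that links transcription factors to RNA polymerase, was at 107, 112, 107 and 107 CPM against 68.1, 80.5 and 71.4 (log2 difference -0.57, SE 0.07, adjusted p = 0.00672). Its lean libraries were almost equal, it was called in 16 of 18 alternatives, and with the left-out library kept the difference was 0.07. Kctd6, an adaptor of a cullin ubiquitin ligase, Dtnbp1, a subunit of a complex that builds lysosome-related organelles, and Chd2, a chromatin remodeller, differed by -0.55, -0.53 and -0.40 log2, with adjusted p of 0.0432, 0.0235 and 0.0466. Against HFD fat, Cyp2d22, Med14, Kctd6 and Chd2 had adjusted p of 0.0405, 0.0367, 0.036 and 0.0434, each with the treated libraries on the lean side of the HFD libraries.

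A set of 24 genes of fat hormones, lipid and glucose handling, macrophages and resveratrol's reported targets gave no call. Of these, 23 were tested and 0 passed (0.148% of all genes did), while 7 had an unadjusted p under 0.05 (9.83% of all genes did). Ucp1, the uncoupler of brown fat, was too low to be tested. Lep, which codes for leptin, was at 211, 213, 366 and 823 CPM on normal diet and at 1042, 1140 and 649 with resveratrol, a log2 difference of 1.23 (SE 0.45, adjusted p = 0.353). The groups overlapped through normal diet 4, and HFD fat had 3188 ± 994 CPM. Dgat2, which makes the last step of triglyceride synthesis, was at 245, 127, 169.9 and 342 CPM against 764, 569 and 552 without overlap (log2 difference 1.51, SE 0.30, adjusted p = 0.0862), with 1218 ± 139 in HFD fat. Slc2a4, the insulin-responsive glucose transporter, was at 61.3 to 109 CPM against 114 to 144, also without overlap (log2 difference 0.58, SE 0.24, adjusted p = 0.423).

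Several others of the set overlapped the lean libraries. Adipoq was at 1723 to 3701 CPM on normal diet and 2145 to 4044 with resveratrol (log2 difference 0.19, SE 0.32, adjusted p = 0.965). Cfd, the complement protease adipsin, was at 4488 to 7650 against 3103 to 4864 CPM (log2 difference -0.66, SE 0.39, adjusted p = 0.641), whereas HFD fat had 886 ± 586. The resistin gene Retn, the fat cell regulator Pparg, the insulin receptor Insr, the fatty acid synthase Fasn and the desaturase Scd1 differed by 0.10, -0.13, -0.20, -0.36 and -0.19 log2, with adjusted p from 0.84 to 0.999. A p that misses the threshold does not show that the levels were equal: the SE of these 5 differences ran from 0.19 to 0.49 log2.

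Genes of resveratrol's reported targets were likewise not called in the group of 24. Sirt1, the sirtuin deacetylase, was at 17.4, 19.2, 22.5 and 20.3 CPM on normal diet and at 14.5, 15.1 and 13.6 with resveratrol, without overlap (log2 difference -0.46, SE 0.20, adjusted p = 0.482). HFD fat had 12.2 ± 0.794 CPM. Ppargc1a, a coactivator of mitochondrial genes, and Prkaa2, a catalytic subunit of AMPK, differed by -0.45 (SE 0.39) and -0.50 log2 (SE 0.30). The AhR targets Cyp1a1 and Cyp1b1 differed by -0.74 (SE 1.04) and -0.42 log2 (SE 0.25). Of all genes tested 0.103% rose and 0.0456% fell. In the list of AMPK, sirtuins, NAD supply and PGC-1 coactivators 1 of 26 genes rose (Prkag3) and 0 fell, with a median of -0.10. Of 30 AhR targets and drug-metabolising enzymes 0 rose and 1 fell (Cyp2d22), with a median of -0.24. In that list Aox3, an aldehyde oxidase, was at 26 to 32.2 CPM against 12.5 to 14.9 and missed the threshold (log2 difference -1.10, SE 0.25, adjusted p = 0.123).

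**Figure D3:**
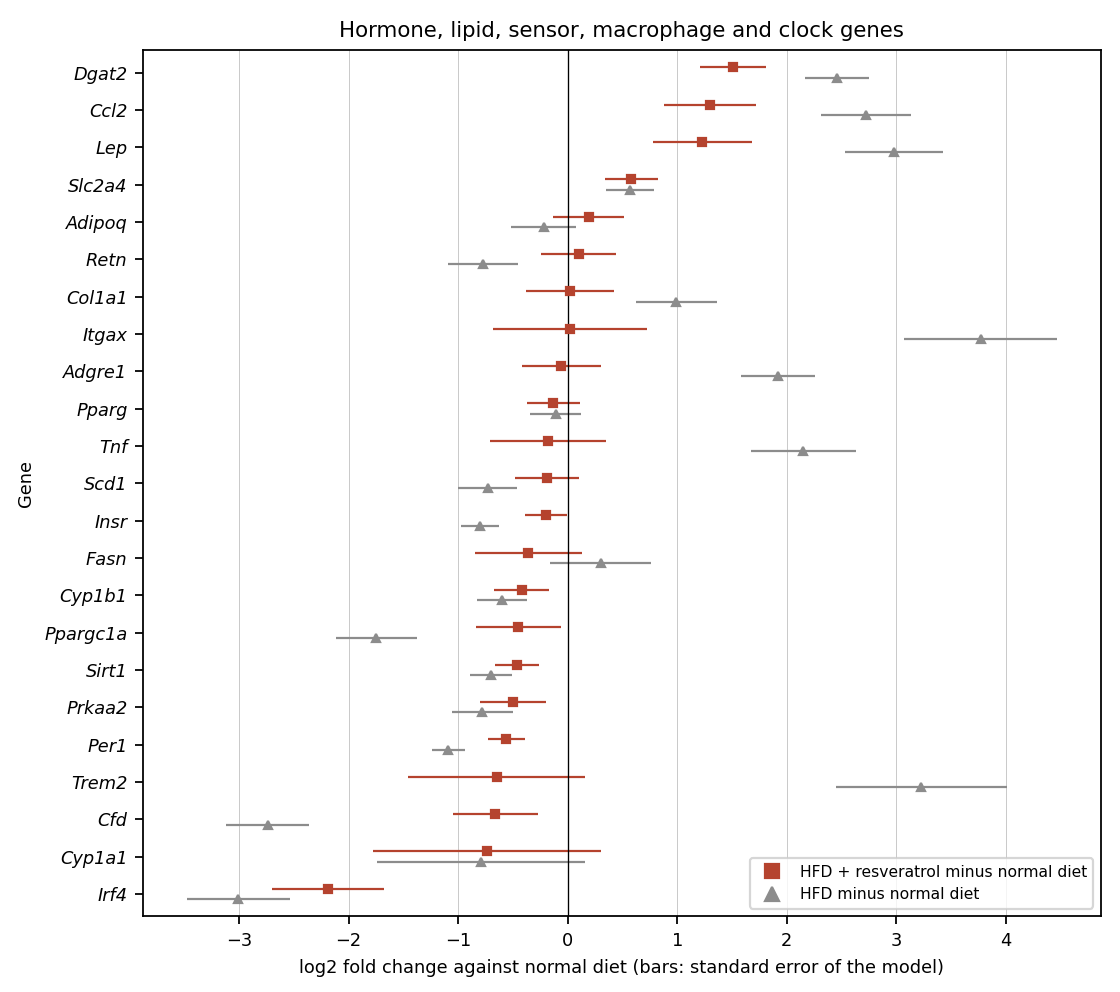
Log2 fold change against normal diet of 23 genes in resveratrol-treated (squares) and untreated HFD fat (triangles), with the model's standard error as bars, both contrasts sharing the normal diet libraries. The squares of 11 genes lie within 1 SE of 0, among them Itgax, Adgre1, Adipoq and Pparg, and those of Dgat2, Ccl2, Lep and Irf4 lie further out than the other 19.

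Macrophage genes of the set were not called either. Itgax, the CD11c integrin of lipid-associated macrophages, was at 6.78, 8.51, 32.8 and 8.4 CPM on normal diet and at 13.7, 20.4 and 9.13 with resveratrol, against 194 ± 109 in HFD fat (SD, n = 4). The log2 difference from normal diet was 0.02 (SE 0.70, adjusted p = 1). Normal diet 3 was high in this gene, and also in Trem2, a lipid receptor of the same cells (32.8 CPM against 3.16 to 6.52 in the other lean libraries and 4.98 to 11.4 with resveratrol), and in Gpnmb. Without normal diet 3 the log2 differences of Trem2 and Gpnmb turned from -0.65 and -0.69 to 0.58 and 0.26, and that of Itgax was 0.86. Adgre1, which codes for F4/80, was at 61.5 to 121 CPM against 74.8 to 82.5 (log2 difference -0.06, SE 0.36, and 0.19 without normal diet 3).

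Lists of macrophage, lysosome and cell cycle genes gave no calls. Since 0.148% of all genes passed, a count of 0 in a list this short is no result about its genes. The same holds for each list below that gave 0 calls. Of 26 lipid-associated macrophage genes 0 were called in either direction and the median log2 difference was -0.05, while in HFD fat 18 were higher than on normal diet (23.1% of all genes were called there in either direction) and the median was 1.38. For 28 macrophage markers the count was 0 and the median -0.18 (HFD 14 higher and 1 lower, median 0.61), for 13 MHC class II genes 0 and -0.18 (HFD 9 higher, 0.93), and for 31 cathepsin and lysosomal proton pump genes 0 and -0.04 (HFD 22 higher, 0.63). DNA replication and mitosis genes, 35 in all, had 0 calls and a median of 0.14 (HFD 17 higher, 1.56). Over the 18 alternatives the resveratrol medians ran from -0.23 to 0.16 for lipid-associated macrophage genes, -0.46 to -0.03 for macrophage markers, -0.28 to 0.06 for MHC class II, -0.07 to 0.08 for lysosomal genes and -0.00 to 0.70 for the cell cycle. Summed CPM of the macrophage markers was 2160 to 3240 on normal diet, 2240 to 2310 with resveratrol and 2560 to 5640 in HFD fat. In bulk tissue fewer cells of a type and less RNA per cell cannot be told apart.

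Ccl2 and the interferon-stimulated genes missed the threshold. Ccl2, the chemokine that draws monocytes, was at 1.23, 1.52, 3 and 1.7 CPM on normal diet and at 6.51, 2.75 and 4.6 with resveratrol (log2 difference 1.30, SE 0.42, adjusted p = 0.281). Of 35 genes listed as interferon-stimulated, some of them interferon regulatory factors, 0 were called. An unadjusted p under 0.05 was reached by 13 on the higher side and 1 on the lower (5.62% and 4.21% of all genes). The median was 0.30 (0.16 to 0.41 over the alternatives). The medians of the single treated libraries were 0.45, 0.01 and 0.33, so the second contributed least. The member with the smallest p, Cmpk2, a mitochondrial nucleotide kinase, was at 11.8, 13.3, 12.8 and 10.6 CPM against 20.2, 15.6 and 19.6 (log2 difference 0.61, SE 0.11, adjusted p = 0.0702). Ifi27l2a was at 177 to 368 against 509 to 1312 CPM (log2 difference 1.49, adjusted p = 0.175) and Gbp2, a guanylate-binding protein, at 35.2 to 53 against 61 to 82.2 (0.72, adjusted p = 0.22). These 3, like Aox3, Gpnmb and all list members named from here on outside the group of 24, were picked after their values were seen.

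Of the genes listed as interferon-stimulated, the 1 with an unadjusted p under 0.05 on the lower side was Irf4. Irf4 is an interferon regulatory factor that fat cells induce on fasting, and its induction by interferon was not tested. It was at 121, 243, 217 and 89.9 CPM on normal diet and at 41.4, 21.8 and 47.2 with resveratrol, without overlap, and HFD fat had 20.8 ± 2.58. The lean libraries were spread widely, and the log2 difference of -2.19 (SE 0.51) had an adjusted p of 0.125.

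B cell transcripts differed by library. The summed CPM of 15 B cell markers was 57.8, 67.3, 102 and 68.5 on normal diet, 278, 393 and 80 with resveratrol and 207 to 292 in HFD fat, and 0 of 15 were called. Ighm, the heavy chain of IgM, was at 32.3, 36.7, 71 and 44 CPM against 231, 302 and 69.7 (log2 difference 2.12, SE 0.49, adjusted p = 0.125). The treated library with low B cell markers, resveratrol 3, was also low in 17 mesothelial markers, at 112 CPM against 603 and 552 in resveratrol 1 and 2 and 406 to 530 on normal diet. In HFD fat the mesothelial sums were 621, 195, 130 and 92.1 CPM beside B cell sums of 245, 292, 207 and 242 (HFD unmatched, 1, 2 and 3). A link between these lists was not tested. With resveratrol 3 left out 15 genes were called.

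Matrix genes gave no calls. Of 44 collagens and other matrix proteins 0 were called. An unadjusted p under 0.05 was reached by 10 on the higher side and 1 on the lower (5.62% and 4.21% of all genes). The median was 0.29, with 0.01 to 0.42 over the alternatives. In HFD fat 16 were higher and 2 lower than on normal diet (23.1% of all genes were called there), with a median of 0.52. Tenascin C, coded by Tnc, was at 18.1, 19, 34.1 and 15.4 CPM on normal diet and at 50.6, 47.5 and 32.2 with resveratrol (log2 difference 1.00, SE 0.27, adjusted p = 0.184). Col15a1, a basement membrane collagen, was at 223 to 405 against 543 to 871 CPM (log2 difference 0.99, SE 0.29, adjusted p = 0.222). On the lower side stood Dcn, the collagen-binding proteoglycan decorin, at 941 to 1127 against 632 to 696 (log2 difference -0.61, SE 0.17, adjusted p = 0.206). Col1a1, the main fibrillar collagen, differed by 0.02 (SE 0.40).

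Cholesterol synthesis gave 0 calls among 27 genes, with 5 at an unadjusted p under 0.05, each higher (5.62% of all genes). The median was 0.16, with 0.09 to 0.65 over the alternatives. In HFD fat 14 were higher than on normal diet (23.1% of all genes were called there), with a median of 0.68. Hmgcs1, which makes HMG-CoA, was at 183, 99.8, 98.7 and 147 CPM on normal diet and at 331, 215 and 245 with resveratrol (log2 difference 1.00, SE 0.24, adjusted p = 0.145). Insig1, the sterol sensor partner, was at 89.9 to 105 against 124 to 216 CPM (log2 difference 0.93, SE 0.30, adjusted p = 0.281) and at 519 ± 203 in HFD fat. Of 26 genes of fatty acid synthesis 0 were called, 6 had an unadjusted p under 0.05 on the higher side and 3 on the lower (5.62% and 4.21% of all genes), and the median of -0.08 ran from -0.29 to 0.21 over the alternatives. Acacb, the acetyl-CoA carboxylase of mitochondria, was at 889 to 1116 against 433 to 698 CPM (log2 difference -0.94, adjusted p = 0.351), and Pgd, of the pentose phosphate pathway, at 146 to 187 against 245 to 284 (0.63, adjusted p = 0.196). Among 16 genes of triglyceride synthesis 0 were called, with a median of 0.07. Agpat2, an acyltransferase of that pathway, was at 57.1 to 95.1 against 111 to 145 CPM (log2 difference 0.84, adjusted p = 0.112).

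In the lists of secreted factors single genes were called, where 0.103% of all genes rose and 0.0456% fell. Of 19 hormones and secreted products of fat cells 1 rose (Apln) and 0 fell, with a median of -0.00. Chemerin, coded by Rarres2, was at 122 to 150.0 against 189.5 to 256 CPM (log2 difference 0.74, adjusted p = 0.177), and Igf1, a growth factor, at 318 to 452 against 223 to 294 (-0.63, adjusted p = 0.273). Of 17 genes of fat cell enlargement 1 rose (Sfrp5) and 0 fell, with a median of -0.07. Npr3, the clearance receptor of natriuretic peptides, was at 799, 1015, 1113 and 1567 CPM against 2370, 2020 and 1683 (log2 difference 0.85, SE 0.23, adjusted p = 0.187). Of 27 insulin signalling genes 0 were called, with a median of -0.09.

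Glucocorticoid and clock genes gave no calls. The median of 19 genes of glucocorticoid action was -0.42, with 0 calls and 7 at an unadjusted p under 0.05, each on the lower side (4.21% of all genes), and the median ran from -0.60 to -0.30 over the alternatives (HFD 0 higher and 7 lower, where 23.1% of all genes were called, median -0.70). Hsd11b1, the enzyme that regenerates active glucocorticoid inside fat cells, was at 217, 116, 145 and 149 CPM on normal diet and at 46.3, 65.1 and 62.3 with resveratrol, without overlap. Its log2 difference was -1.44 (SE 0.27, adjusted p = 0.075), and HFD fat had 47.6 ± 9.46 CPM. Per1, a clock gene that glucocorticoids induce, was at 151, 178, 213 and 212 against 119.7, 123 and 141 CPM (log2 difference -0.56, SE 0.17, adjusted p = 0.23). Of 20 core clock genes 0 were called, with 6 at an unadjusted p under 0.05 on the lower side and 1 on the higher (4.21% and 5.62% of all genes). Their median was -0.10, and single members ran from -1.47 to 4.14 log2. Neither end passed the threshold, and the levels behind these ends are not given here, so their size is uncertain. The hour at which fat was taken is not stated in the labels, and its part in these values was not tested.

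Ribosomal protein genes gave no calls. For 30 cytosolic ribosomal proteins the median was -0.15, with 0 calls and 5 at an unadjusted p under 0.05 on the lower side (4.21% of all genes), and the median ran from -0.18 to 0.15 over the alternatives. Rps6, a protein of the small subunit, was at 44.8 to 47.7 against 34.3 to 38.6 CPM (log2 difference -0.36, SE 0.09, adjusted p = 0.144). In a separate list of 24 genes of endoplasmic reticulum stress 0 were called, and the median was -0.00. An unadjusted p under 0.05 was reached there by 4 on the higher side and 2 on the lower (5.62% and 4.21% of all genes). On the lower side of that list, Atf4, the transcription factor of the stress response to amino acid lack, was at 90.2 to 99.1 against 66.2 to 76.5 CPM (log2 difference -0.38, SE 0.08, adjusted p = 0.0964).

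**Figure D4:**
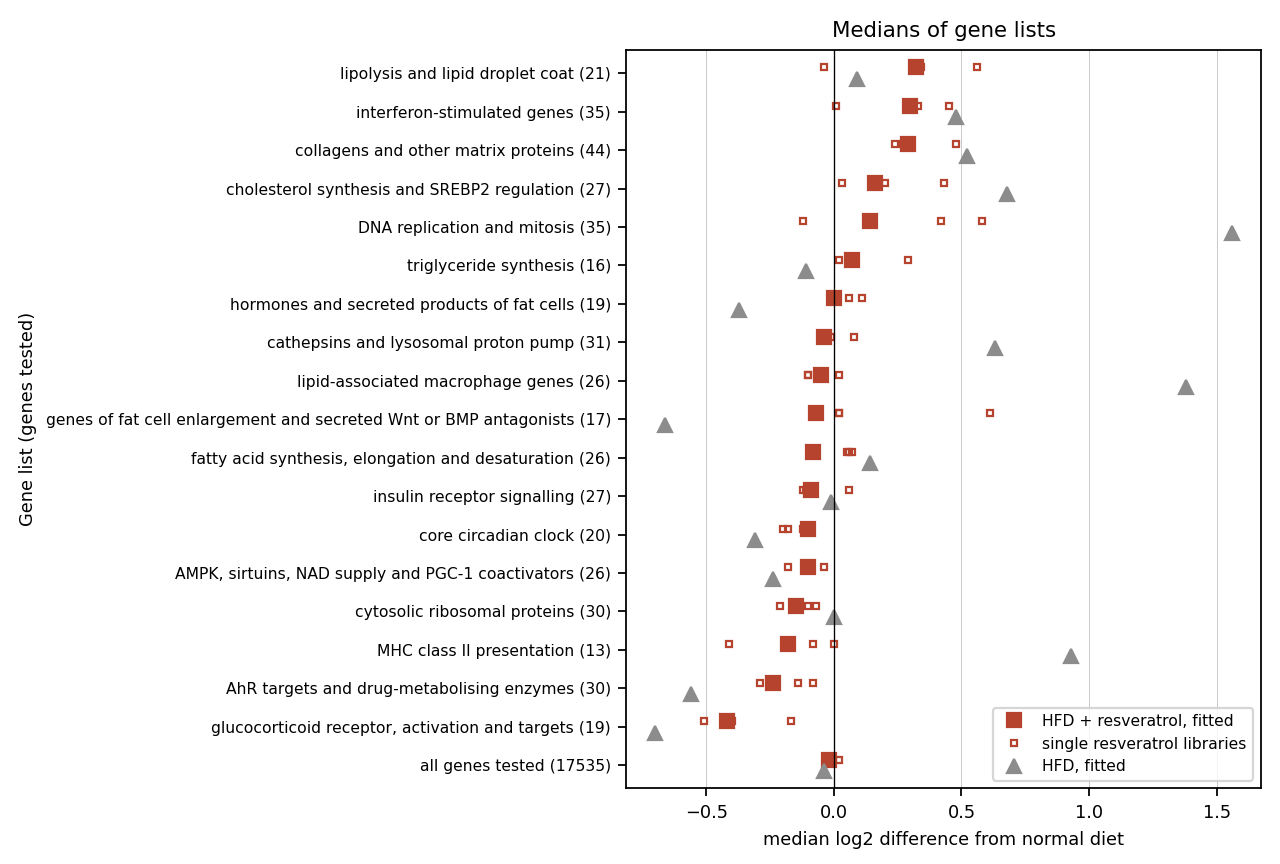
Median log2 difference from normal diet of 18 gene lists and of all 17535 genes in resveratrol-treated fat (filled squares; open squares are the single libraries) and untreated HFD fat (triangles), both sharing the normal diet libraries. Treated medians lie between -0.42 and 0.32, and the HFD medians of lipid-associated macrophage, cell cycle, MHC class II, cholesterol and lysosome genes lie at 0.63 or above.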

How the data were processed

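The members and gene lists were chosen with earlier results of these data known. Per the file headers, the deposited mRNA table gives each transcript's raw counts as whole numbers, next to the authors' FPKM. Tools listed in the submitters' processing notes are fastp and HISAT2, with build GRCm38. For the counter, the annotation release and strand use, the entry is "not given in the sources used here": antisense and overlapping genes could not be told apart. The header has 43 names for 44 cells, and 5 records broken over 2 lines were rejoined. The assignment of names to counts was checked with totals implied by the deposited FPKM (largest difference 0.0418% for the own column, smallest 0.492% for another). Of 16 count columns, 14 matched a title and 2 a group only (1 HFD, 1 HFD with metformin, here called unmatched). A further 18 columns of per-sample values were not used beyond that check. Counts of 91879 transcripts were summed to 27150 genes.

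Tests were two-sided and used edgeR 4.0.16 in R 4.3.3: the tool's filter on low counts, TMM and a robust quasi-likelihood model with group as factor, fitted to 15 libraries (residual df 11) and checked on simulated data. P-values were adjusted (Benjamini-Hochberg) over 17535 genes. Levels are TMM-normalised CPM, and marker sums are CPM of the mRNA total. Genes were named by a rule: the 12 largest increases and decreases past 0.05 with a mean of at least 5 CPM in the higher group, no overlap of the groups and no provisional name, called members of each list, and 24 set genes. Of the called genes, 1 is not reported here. Chi-square values between libraries of a group ran from 26.5 to 58.9 (per degree of freedom), so none was treated as a repeated deposit. P-values measure only the spread between these libraries, which the labels do not say came from separate animals. Alternatives included DESeq2 1.42.0.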

Additional observations from a re-analysis of the deposited data

Results flagged for a closer look

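Of the groups of 4 libraries, some held 1 library far from the other 3 by Dixon's test, which chance does in about 1 in 20 groups. Normal diet 3 was high in Trem2 (32.8 CPM, others 3.16 to 6.52), Itgax (32.8, others 6.78 to 8.51) and Gpnmb (167, others 25.9 to 42.1) and low in Aox3 (26, others 31.3 to 32.2). Normal diet 4 was high in Sfrp5 (137, others 58.8 to 68.7), and normal diet 2 in Med14 (112, others 107) and in ciliated epithelium markers (1200, others 26.9 to 44.2).

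Among HFD libraries, the unmatched one was low in Col1a1 (744 CPM, others 1652 to 1692) and high in Adipoq (3063), Slc2a4 (156), Prkag3 (21.4), Hsd11b1 (61.7), Gbp2 (107), Aox3 (13) and fat cell markers (45500, others 31900 to 33400). HFD 3 was high in Bicdl1 (30.5, others 25.9 to 26.2). Outside the comparison, the left-out resveratrol library held 12100 CPM of Crisp1.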

How the results depend on the processing

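Counts of genes higher and lower with resveratrol than on normal diet were 18 and 8. They stayed at 18 and 8 with DESeq2 size factors, a stricter filter (1 CPM in 3 libraries) or a non-robust spread. They were 0 and 0 with the left-out library kept or with the 7 libraries alone, 241 and 179 by DESeq2, 11 and 4 with no filter, 6 and 2 without normal diet 2 and resveratrol 2, and 6 and 2 without the columns matched to a group only. Leaving out 1 library in turn gave 3 to 11 higher and 2 to 5 lower. In 2 alternatives chosen after seeing the data, 77 and 18 genes passed without the metformin libraries and 33 and 8 without the 5 libraries rich in ciliated epithelium transcripts. The causes were not tested. Genes differing between HFD and normal diet numbered 4050, and 1531 with the left-out library kept. Between resveratrol and HFD they numbered 732, and 395 with that library kept, 2137 by DESeq2, 351 with no filter and 1 to 763 with 1 library left out (1 to 2 without a resveratrol library), 5 without normal diet 2 and resveratrol 2, 17 without the 5 libraries rich in ciliated epithelium transcripts and 1855 without the columns matched to a group only. The 7 libraries alone hold no HFD group.

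Of the 26 called genes 25 kept their direction in all 18 alternatives. With the left-out library kept, log2 differences turned for Med14 (0.07), Adipoq (-0.21), Retn (-0.30), Itgax (-0.23) and Col1a1 (-0.19). Without the libraries rich in ciliated epithelium transcripts they turned for Itgax (-0.50 for either set), Tnf (0.21 for 2 libraries, 0.19 for 5) and Col1a1 (-0.04). Tnf was low, at 0.154 to 0.644 CPM on normal diet and 0.207 to 0.478 with resveratrol (log2 difference in the main fit -0.18, SE 0.53). Leaving out 1 library in turn, uncalled differences ran across 0: Adipoq -0.02 to 0.40, Retn -0.08 to 0.29, Pparg -0.32 to 0.04, Fasn -0.64 to 0.43, Scd1 -0.35 to 0.10, Itgax -0.31 to 0.86, Trem2 -1.03 to 0.58, Adgre1 -0.17 to 0.19, Tnf -0.44 to 0.14, Col1a1 -0.20 to 0.30 and Gpnmb -1.12 to 0.26. No paired analysis was possible because the labels give no replicate number shared between groups.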
